A study of Mus musculus with 16 samples.

Results

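The genes described here are 7 genes by which lymphatic endothelium is commonly recognised: Prox1, Nr2f2, Sox18, Maf, Mmrn1, Fgl2 and Pdpn. They were taken by gene symbol from a table of 15895 genes, each matched 1 row, and all 7 passed the filter on low values that 13033 genes passed. Lymphatic endothelial cells had been sorted from hearts of CD1 mice as CD45-/CD31+/podoplanin+ cells, and their RNA was sequenced. There were 4 groups of 4 libraries: mice had sham surgery or a coronary ligation that causes myocardial infarction (MI), on day 1 after birth (P1) or day 56 (P56), and every heart was collected 3 days after the operation. Neonatal ventricles were pooled, 6 to a digest, minced and digested for 30 to 40 minutes, whereas hearts of adult males were digested by perfusion for about 8 minutes. Age therefore cannot be told apart from digestion, pooling and, as far as the labels go, sex. Podoplanin is the product of Pdpn and CD31 that of Pecam1, so the level of both in these libraries was partly set by the sort. Nothing in the labels ties libraries to separate pools or animals, so the p-values measure only the spread between libraries, which may be technical.

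Lymphatic endothelium in the embryo buds from veins. Sox18, a factor of the SRY-box family, and Nr2f2 (COUP-TFII), an orphan nuclear receptor that also marks veins, switch on Prox1, the homeobox factor that sets the lymphatic fate and is needed to hold it in the adult. Maf is a basic leucine zipper factor found in lymphatic endothelium and in other cells, such as some macrophages and T cells. Mmrn1 (multimerin 1) is a secreted glycoprotein of lymphatic endothelium and platelets, Fgl2 (fibrinogen-like protein 2) is a secreted or membrane-bound protein with prothrombinase and immune-regulating activity, and Pdpn (podoplanin) is a surface mucin through which lymphatic endothelium engages platelets. In the heart, lymphatic vessels drain fluid and immune cells and grow after infarction.

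Values are in the deposited unit, reads scaled to library size and then by TMM (a trimmed mean of ratios between libraries), and each was a whole number of reads times a constant of its library. Libraries held 17103319 to 43837520 reads. In 3 of them fewer than 10000 genes had a read: sham P1 library 1 (9451 genes), sham P1 library 2 (7939) and MI P56 library 5 (7746). A single gene, Uqcrc1, took 98.6% and 99.8% of the reads of the last 2 of these, and a read there was worth 4.04 and 4.31 units. These 3 were left out of the main fit, which has 13 libraries (sham P1 n = 2, MI P1 n = 4, sham P56 n = 4, MI P56 n = 3), and results with all 16 are given beside it. Sham P1 library 5, with 47.3% of its reads on Uqcrc1 but reads on 15549 genes, was kept. Library numbers run 1, 2, 3 and 5 in each group. Differences are log2 differences of value + 1 from limma, which understate changes of low genes. A gene is called higher or lower where its Benjamini-Hochberg adjusted p over the 13033 genes was under 0.05.

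All 7 genes were read in each of the 13 libraries, from 252 reads (Sox18 in sham P1 library 5) to 40896 (Mmrn1 in sham P1 library 3). Per kilobase of exon, the median over the 13 libraries was 90.9 for Mmrn1, 42.1 for Fgl2, 31.3 for Prox1, 9.89 for Pdpn, 8.04 for Sox18, 7.16 for Maf and 6.59 for Nr2f2. The ranges of the last 4 overlap (Pdpn 4.84 to 13.8, Nr2f2 5.24 to 13.5), so their order is not fixed. Of the close relatives, also per kilobase, Prox2 (0.0870 to 1.68) and Nr2f1 (0.0720 to 0.437) were below every value of Prox1 (16.5 to 61.5) and Nr2f2. The range of Sox7 (2.33 to 11.4) overlapped that of Sox18 (3.57 to 15.7). The CD45 gene Ptprc was at 0.0997 to 5.31 units (not per length) and Pecam1 at 59.9 to 164. The 12 fibroblast markers summed to 883 to 8159 units per library, and the 7 identity genes to 547 to 1674; the sort for CD31+ cells should remove fibroblasts, and the source of these reads was not tested.

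The promoters of 5 of the 7 genes are in the RefSeq table (GRCm38.p6); Sox18 and Maf have no entry. The windows of Prox1 and Nr2f2, factors that differed in opposite directions with age, are shown with those of Fgl2 and Pdpn, 1 gene that differed with age and 1 with no call. Each is the sense strand, 5′ to 3′, of the 250 bases before the start (of the upstream of 2 starts, for Prox1), and capitals mark matches to ACAAT (the Sox core), AGGTCA (a nuclear receptor half-site) and TGCTGA (a Maf half-site), searched on both strands. The window of Fgl2 is shown only up to its annotated gene, which leaves 219 bases.
Prox1, chr1:190170828-190171077, minus strand: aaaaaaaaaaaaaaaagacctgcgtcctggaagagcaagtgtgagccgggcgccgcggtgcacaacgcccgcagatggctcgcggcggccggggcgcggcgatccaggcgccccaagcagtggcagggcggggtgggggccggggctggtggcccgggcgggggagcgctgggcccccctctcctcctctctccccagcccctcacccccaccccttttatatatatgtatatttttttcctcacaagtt
Nr2f2, chr7:70366747-70366996, minus strand: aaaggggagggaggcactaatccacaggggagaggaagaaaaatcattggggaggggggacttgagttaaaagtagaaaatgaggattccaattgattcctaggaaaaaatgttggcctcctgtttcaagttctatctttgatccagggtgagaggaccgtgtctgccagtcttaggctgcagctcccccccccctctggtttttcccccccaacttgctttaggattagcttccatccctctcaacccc
Fgl2, chr5:21372423-21372641, plus strand: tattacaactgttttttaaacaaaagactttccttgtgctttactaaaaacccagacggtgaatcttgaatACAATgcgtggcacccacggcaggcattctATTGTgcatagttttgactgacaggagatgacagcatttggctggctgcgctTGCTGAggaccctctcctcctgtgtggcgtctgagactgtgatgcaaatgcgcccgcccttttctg
Pdpn, chr4:143299565-143299814, minus strand: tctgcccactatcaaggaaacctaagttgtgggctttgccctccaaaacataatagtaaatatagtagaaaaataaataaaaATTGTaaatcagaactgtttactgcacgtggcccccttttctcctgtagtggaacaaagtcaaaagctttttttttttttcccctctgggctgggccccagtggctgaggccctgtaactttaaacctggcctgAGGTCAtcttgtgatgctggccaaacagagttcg
Neither Prox1 nor Nr2f2 had a match in its window. The window of Fgl2 held ACAAT in either orientation and 1 TGCTGA, and that of Pdpn held 1 ACAAT and 1 AGGTCA. Among all 32851 promoter windows of this length, 27.7% held ACAAT, 14.0% AGGTCA and 16.1% TGCTGA. The entry for Mmrn1 starts inside the gene of the GENCODE annotation and is not shown. A match describes letters only, and an absence says nothing of the factor.

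Identity genes differed between the neonatal and the adult heart in opposite directions. Averaged over both surgeries, 5 of the 7 genes were called between P56 and P1, against 18.5% of all genes tested: Maf, Nr2f2 and Sox18 were higher at P56 (8.25% of all genes were), and Fgl2 and Prox1 were lower (10.3%). Mmrn1 and Pdpn were not called. The plot of values by library shows the same 7 genes in all 16 libraries.

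**Figure D1:**
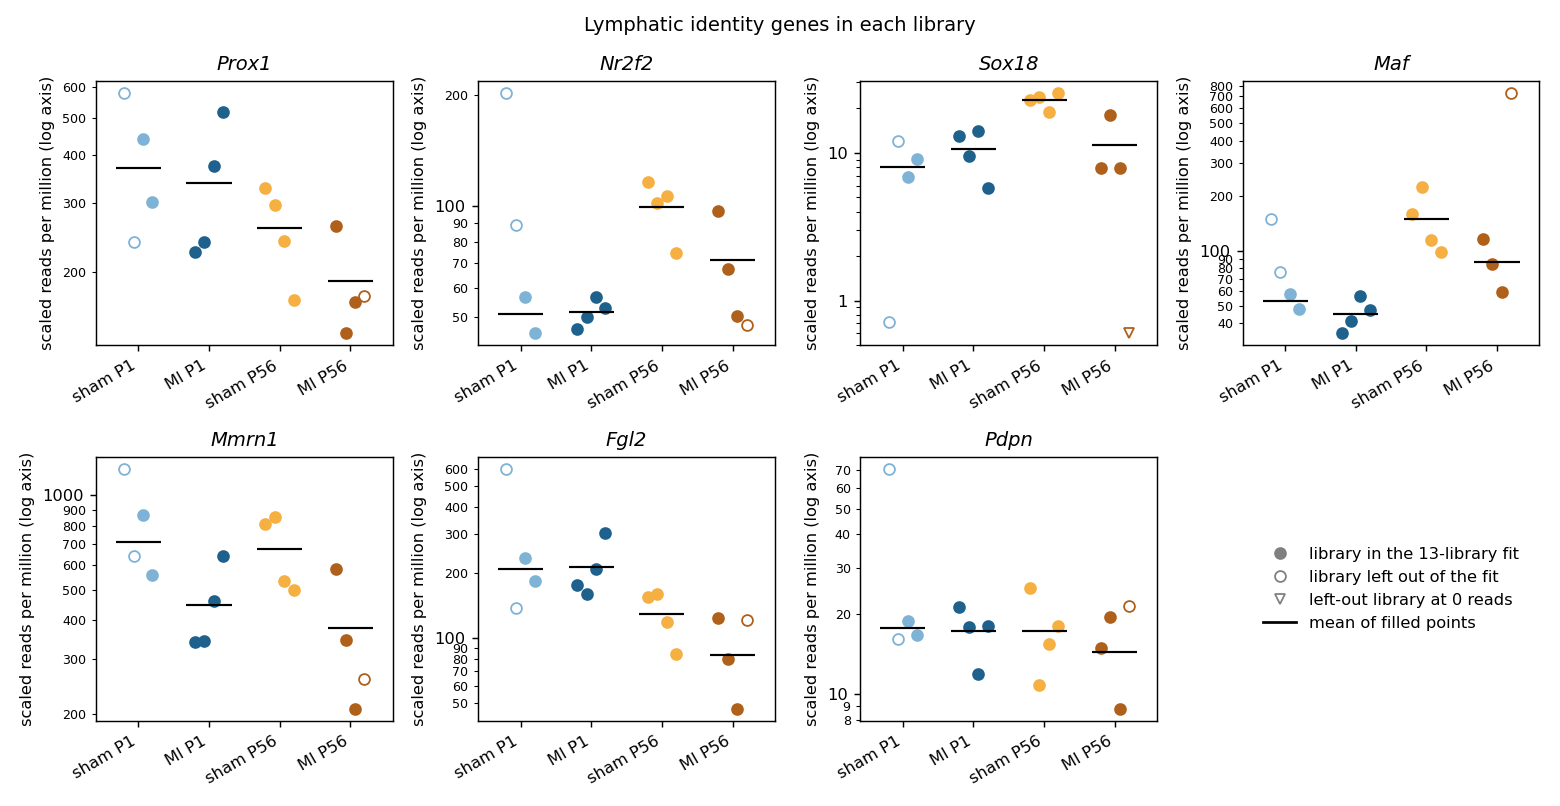
Value of each identity gene (y axis, TMM-scaled reads, log scale, a separate scale in each panel) in every library, by group on the x axis. Filled points are the 13 libraries of the main fit and the line is their mean; open points are the 3 libraries left out, with Sox18 at 0 reads in 1 of them drawn as a triangle at an arbitrary height. For Maf, the lowest filled P56 point (59.0) is just above the highest filled P1 point (58.1).

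Averaged over surgery, Maf differed most among the identity genes higher at P56; in sham Sox18 differed as much. Its gene spans chr8:115682942-115707794 on the minus strand (GRCm38). It stood at 58.1 and 47.7 units in sham P1 libraries 3 and 5 and at 35.3, 40.98, 56.4 and 47.3 in the 4 MI P1 libraries. At P56 it stood at 159, 222, 114 and 97.7 in sham and at 116, 84.4 and 59.0 after MI. Every P56 library was thus above every P1 library, by a small margin for MI P56 library 3, and Maf alone of the 7 genes had ages that did not overlap; 2.69% of all genes were higher without overlap. The mean rose from 52.9 ± 7.37 (SD, n = 2) to 148 ± 55.8 (n = 4) between the sham groups. The log2 difference was 1.15 ± 0.21 (SE) averaged over surgery (limma adjusted p = 6.1e-04), 1.40 ± 0.31 in sham (limma adjusted p = 0.0050) and 0.90 ± 0.28 after MI, where it was not called (limma adjusted p = 0.067). After MI alone 9.44% of all genes were higher without overlap. The averaged difference was 1.29 with all 16 libraries (limma adjusted p = 0.074); MI P56 library 5 then enters with 729 units, from 169 reads, and sham P1 libraries 1 and 2 with 150 and 76.7 units, inside the P56 range. The sham difference was then 0.90 and no longer called (limma adjusted p = 0.34).

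Nr2f2 lies at chr7:70351944-70366735 on the minus strand. Its values were 56.6 and 45.2 in sham P1, 46.5, 49.9, 56.8 and 53.0 in MI P1, 116, 102, 106 and 74.5 in sham P56, and 96.9, 67.5 and 50.2 in MI P56. All 4 sham P56 libraries were above all P1 libraries, while MI P56 library 3 fell among them. The log2 difference was 0.95 ± 0.26 in sham (limma adjusted p = 0.019) and 0.68 ± 0.17 averaged over surgery (limma adjusted p = 0.0084). After MI it was 0.42 ± 0.23, not called (limma adjusted p = 0.35). The sham call was lost with all 16 libraries (0.25, limma adjusted p = 0.73) and with only the sham groups fitted (0.95, limma adjusted p = 0.054). The averaged difference fell to 0.27 with all 16 libraries (limma adjusted p = 0.68). The left-out libraries stood at 202 and 88.9 in sham P1 and 47.4 in MI P56. Without sham P1 library 5 it was 0.60 (limma adjusted p = 0.066). The exons of Nr2f2 share 643 bases with those of the antisense gene B130024G19Rik, and those of Maf and Prox1 share 440 and 133 bases with antisense genes; whether reads were counted by strand is not given in the sources used here.

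Sox18, at chr2:181669836-181671640 on the minus strand, was high in 1 group. It stood at 6.86 and 9.13 in sham P1, at 13.03, 9.51, 14.0 and 5.78 in MI P1, at 22.8, 23.9, 18.9 and 25.4 in sham P56, and at 7.94, 17.98 and 7.90 in MI P56. The sham P56 group stood above all 9 other libraries, and MI P56 overlapped MI P1. In sham the log2 difference between ages was 1.40 ± 0.36 (limma adjusted p = 0.013), and after MI it was 0.05 ± 0.32 (limma adjusted p = 0.96). The averaged difference, 0.73 ± 0.24 (limma adjusted p = 0.040), therefore joins unlike values. Neither was called with all 16 libraries (limma adjusted p = 0.13 in sham and 0.64 averaged). Without sham P1 library 3 or library 5 the difference in sham was 1.22 or 1.59 and was not called (limma adjusted p = 0.14 and 0.063).

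Prox1 lies at chr1:190118035-190170714 on the minus strand. It stood at 439 and 303 in sham P1, at 224, 238, 376 and 516 in MI P1, at 330, 298, 241 and 169 in sham P56, and at 262, 139 and 167 in MI P56. The P1 and P56 groups of the same surgery overlapped, while both sham P1 libraries were above all 3 MI P56 libraries. The averaged log2 difference was -0.67 ± 0.23 (limma adjusted p = 0.0497), close to the threshold. It was not called in sham (-0.53 ± 0.35, limma adjusted p = 0.35) or after MI (-0.80 ± 0.31, limma adjusted p = 0.15). The averaged call was lost in 16 of 24 alternatives, among them all 16 libraries (-0.69, limma adjusted p = 0.17) and edgeR on reads (-0.69, edgeR adjusted p = 0.064), and in 8 of the 13 fits that left out 1 library.

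Fgl2, at chr5:21372642-21378374 on the plus strand, was the gene lower at P56 by the widest margin. It stood at 232 and 183 in sham P1, at 176, 159, 208 and 304 in MI P1, at 154, 159, 119 and 84.0 in sham P56, and at 124, 79.8 and 46.9 in MI P56. Each P56 group of the 13 libraries lay below the P1 group of the same surgery without overlap, which holds in sham for 16.7% of all genes and after MI for 11.2%. The left-out libraries stood at 603 and 137 in sham P1 and at 121 in MI P56. With all 16 libraries the sham groups therefore overlapped. The log2 difference was -1.06 ± 0.23 averaged over surgery (limma adjusted p = 0.0027) and -1.39 ± 0.30 after MI (limma adjusted p = 0.0093). In sham it was -0.72 ± 0.34, not called (limma adjusted p = 0.19). The averaged difference was called in all 24 alternatives, with all 16 libraries at -1.10 (limma adjusted p = 0.048); after MI it was not called without MI P56 library 3 (-1.04, limma adjusted p = 0.064) or with all 16 libraries (-1.24, limma adjusted p = 0.44).

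Mmrn1 and Pdpn gave no call in any comparison of the main fit. Mmrn1, at chr6:60924976-60989378 on the plus strand, stood at 863 and 557 in sham P1, at 340, 342, 458 and 641 in MI P1, at 813, 856, 533 and 499 in sham P56, and at 581, 346 and 208 in MI P56. Its averaged log2 difference between ages was -0.19 with a 95% interval from -0.71 to 0.32. Pdpn, at chr4:143267431-143299564 on the minus strand, stood at 18.8 and 16.7 in sham P1, at 21.3, 17.97, 11.9 and 18.1 in MI P1, at 25.0, 10.8, 15.4 and 17.998 in sham P56, and at 14.9, 19.5 and 8.79 in MI P56. Its averaged difference was -0.19, interval -0.66 to 0.29. Differences of that size can therefore not be told from 0 here, nor can ones near the interval bounds be dismissed.

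By surgery, 3 of 7 genes were called higher at P56 in sham (Maf, Sox18 and Nr2f2) and 0 lower, against 13.2% of all genes called in either direction and 5.89% called higher. The groups of these 3 did not overlap in sham; 16.3% of all genes were higher at P56 without overlap, and 16.7% lower. After MI, 1 of 7 was called (Fgl2, lower), against 5.35% in either direction and 3.26% lower. All 16 libraries together gave 1 of 7 averaged over surgery (Fgl2, lower), 0 in sham and 0 after MI, against 3.85%, 3.91% and 0.106% of the genes tested. The 2 comparisons share no library, and their difference is the interaction given with the infarction results. The plot of differences sets them side by side.

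**Figure D2:**
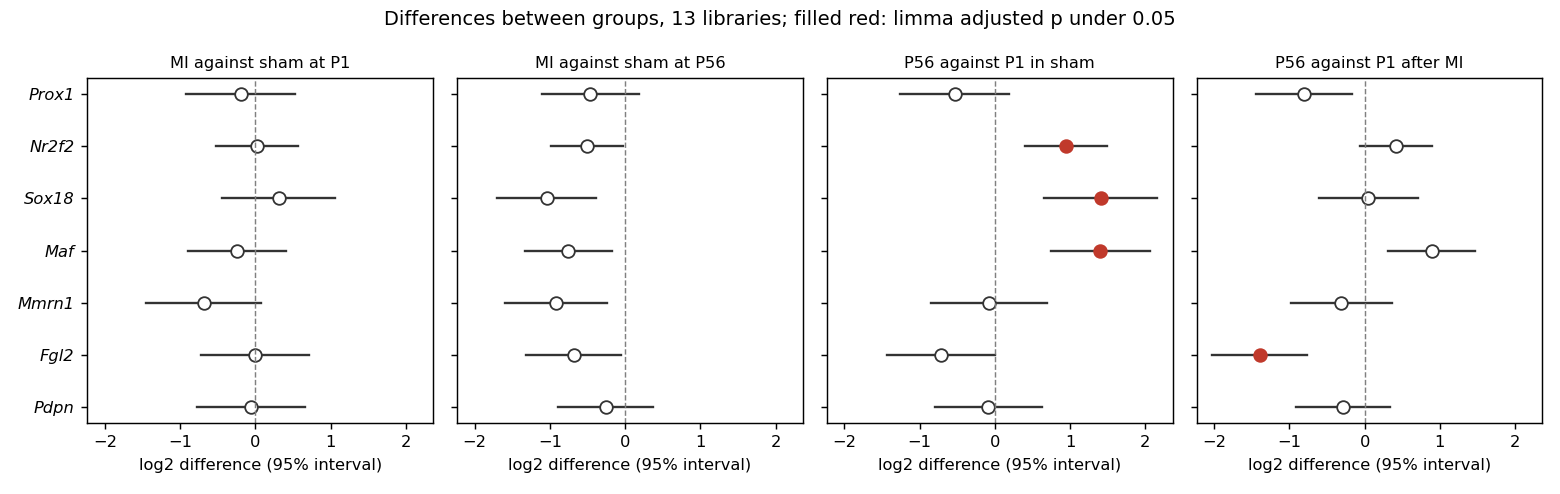
Log2 difference of each identity gene (points, x axis) with its 95% interval (line) in 4 comparisons of the 13 libraries; red filled points have a limma adjusted p under 0.05. Maf, Sox18 and Nr2f2 are called in the sham age comparison, at 1.40, 1.40 and 0.95, Fgl2 in the age comparison after MI, at -1.39, and no gene in either comparison of MI with sham.

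Markers of other cell types differed between the sham groups as well. In the same comparison 11 of 11 cardiomyocyte markers were higher at P56, and their summed value was 151 to 229 units in sham P1 and 1291 to 2331 in sham P56. Of the 12 blood endothelial markers 6 were higher, with sums of 176 to 222 and 591 to 969. Of the 15 pan-endothelial genes 5 were higher, with sums of 580 to 746 and 859 to 1032, and of 8 pericyte markers 3 were higher. Of 6 macrophage markers tested 1 was lower, and the median difference of the 6 was 0.30. The 10 macrophage markers with values, tested or not, summed to 19.1 to 19.3 and 7.20 to 11.1. The 12 fibroblast markers summed to 3228 and 6719 in sham P1 and to 883 to 4117 in sham P56, with 2 higher and 4 lower. The part of such cells in the values of Maf, Nr2f2 and Sox18 was not tested. In RNA from bulk samples, fewer cells of a type and less RNA per cell cannot be told apart. When each library was rescaled to the pan-endothelial genes, which moved the median of all genes by -0.55, the sham differences of Maf, Nr2f2 and Sox18 were 0.69, 0.23 and 0.73 and were not called (limma adjusted p = 0.14, 0.59 and 0.17). On that scale Prox1 and Fgl2 were called lower instead, at -1.26 and -1.43 (limma adjusted p = 0.019 and 0.0046). It called 3121 of all 13033 genes in this comparison, in either direction, against 1716 in the main fit.

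A ratio of 2 genes within a library does not depend on such scaling. It does not show which of the 2 genes moved, and the part of other cells in it was not tested. The ratio of each other gene to Prox1 was therefore compared between the 6 P1 and the 7 P56 libraries by an exact two-sided permutation test, a comparison added after the values were seen. The 6 tests share Prox1 as denominator, and no share over all genes was computed for such ratios. Prox1 itself was at -0.67 between ages averaged over surgery, and the median of all genes at 0.01. A gene that did not change with age is thus also higher over Prox1 at P56. Maf over Prox1 was 0.132 and 0.158 in sham P1, 0.157, 0.172, 0.150 and 0.0917 in MI P1, 0.483, 0.746, 0.474 and 0.579 in sham P56, and 0.441, 0.609 and 0.354 in MI P56. The ages stood well apart: the mean was 0.143 ± 0.0284 (SD, n = 6) at P1 and 0.527 ± 0.129 (n = 7) at P56, 3.65-fold higher as a geometric mean (exact permutation p = 0.0012, the smallest possible, adjusted over 6 ratios 0.0035). With all 16 libraries the ages still did not overlap, with P1 at 0.0917 to 0.322 and P56 at 0.354 to 4.23.

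Nr2f2 over Prox1 was 0.103 to 0.209 at P1 and 0.301 to 0.487 at P56, 2.52-fold higher without overlap (exact permutation p = 0.0012, adjusted 0.0035). Over all 16 libraries it was 1.95-fold higher and the ages overlapped (exact permutation adjusted p = 0.0098). Sox18 over Prox1 was 2.67-fold higher at P56 (exact permutation adjusted p = 0.019), with overlap, which joins unlike values: 4.15-fold in sham and 1.82-fold after MI. Fgl2 over Prox1 was 0.755 times its P1 level (exact permutation adjusted p = 0.012), and Mmrn1 over Prox1 was 1.51-fold higher (exact permutation adjusted p = 0.022). Mmrn1 itself was at -0.19 averaged over surgery (95% interval -0.71 to 0.32) and not called, so no rise of Mmrn1 was shown. Sham and MI libraries are not balanced between the ages, and within surgery the Mmrn1 ratio was 1.37-fold higher in sham and 1.41-fold after MI. With ages permuted within surgery the adjusted p of the averaged Mmrn1 difference was 0.014 by the exact permutation test, and the other 5 ratios kept their side of the threshold. The Mmrn1 difference was 1.28-fold with all 16 libraries (exact permutation adjusted p = 0.14). Pdpn over Prox1 was 1.35-fold higher, with no difference shown (exact permutation adjusted p = 0.25). The ratios of Maf, Nr2f2, Sox18 and Fgl2 kept an adjusted p under 0.05 without each of the 13 libraries in turn.

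**Figure D3:**
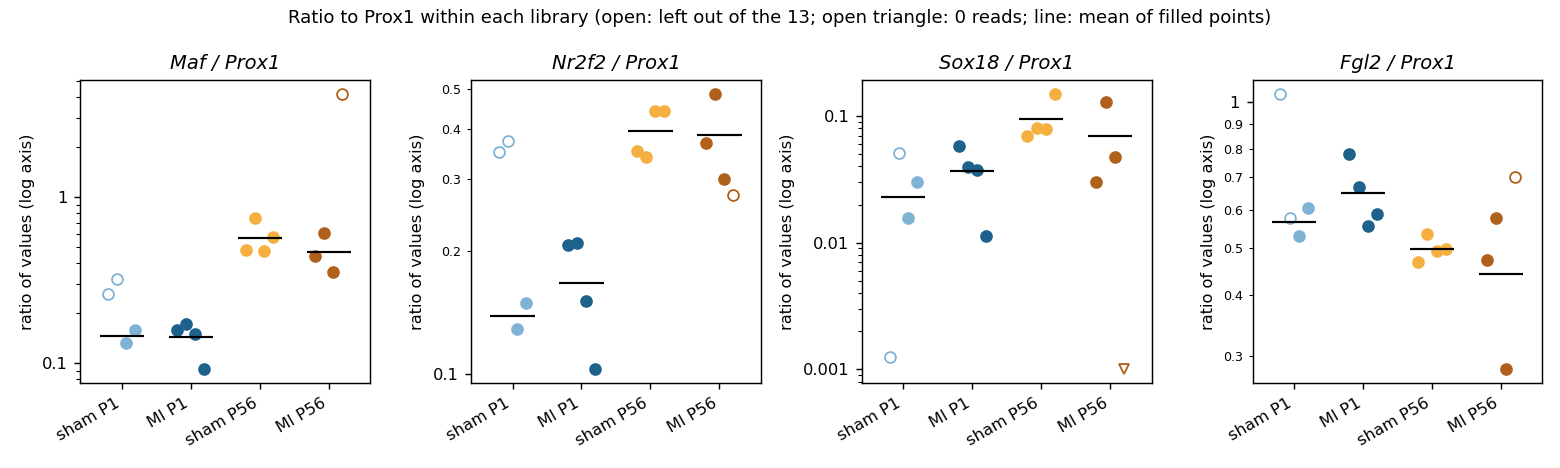
Ratio of Maf, Nr2f2, Sox18 and Fgl2 to Prox1 within each library (y axis, log scale, a separate scale in each panel), by group on the x axis. Filled points are the 13 libraries and the line is their mean; open points are the 3 libraries left out, and the triangle marks Sox18 at 0 reads at an arbitrary height. Maf over Prox1 is at most 0.172 in the filled P1 points and at least 0.354 in the P56 points.

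After infarction at P56, all 7 genes had a lower fitted mean than in sham, but 0 of 7 were called, against 3.42% of all genes in either direction and 1.07% called lower. Sox18 came nearest, at -1.04 ± 0.32 (limma adjusted p = 0.075): the sham libraries were at 18.9 to 25.4 and the MI libraries at 7.90 to 17.98 without overlap, as were 5.79% of all genes in that direction. Mmrn1 followed at -0.92 ± 0.32 (limma adjusted p = 0.13), Maf at -0.75 ± 0.28 (0.15) and Fgl2 at -0.68 ± 0.30 (0.24). Nr2f2 was at -0.51 ± 0.23 (limma adjusted p = 0.26), Prox1 at -0.46 ± 0.31 (0.47) and Pdpn at -0.26 ± 0.30 (0.72). Before adjustment, 5 of the 7 had a limma p under 0.05, and so did 2235 of the 13033 genes. That count of 5 rests on single libraries: it was 1 without MI P56 library 3 (1579 of all genes). It was 3 without sham P56 library 1 (2253 of all genes) or MI P56 library 2 (2024). With edgeR it was also 3 (2116 of all genes), and with DESeq2 3 (2408). It was 2 with all 16 libraries (1030 of 13243) and 0 on the pan-endothelial scale (4429 of 13033). Sox18 was called without MI P56 library 2 (-1.41, limma adjusted p = 0.026) and Mmrn1 without MI P56 library 1 (-1.29, limma adjusted p = 0.046). The difference of Maf was 0.03 with all 16 libraries (limma adjusted p = 0.995).

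The median difference of the 7 genes at P56 was -0.68, against 0.01 over all genes tested. The 15 pan-endothelial genes had a median of -0.61 with 5 called lower, and the 12 blood endothelial markers -0.80 with 4 called lower. Of 11 cardiomyocyte markers 10 were called lower, with sums of 1291 to 2331 in sham and 325 to 572 after MI. In the other direction, 5 of 12 fibroblast markers were called higher, with sums of 883 to 4117 in sham and 3815 to 8159 after MI. So were 2 of 6 macrophage markers tested. The 10 macrophage markers with values, tested or not, summed to 7.20 to 11.1 in sham and 19.6 to 92.8 after MI. The part of such cells in the lower values of the identity genes was not tested. On the scale set by the pan-endothelial genes, which moved the median of all genes by 0.52, Prox1, Nr2f2 and Pdpn had positive differences (0.21, 0.16 and 0.37) and the other 4 negative ones, none called. The plot of gene lists shows these groups together.

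**Figure D4:**
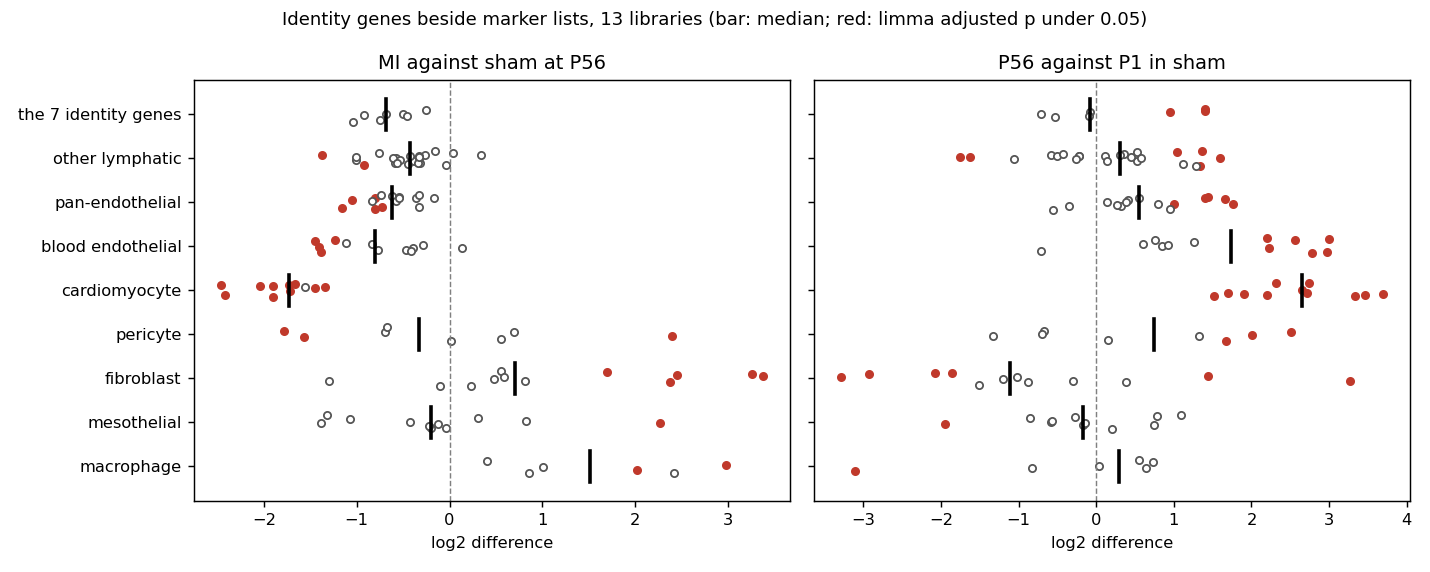
Log2 difference (x axis) of every tested gene of 9 lists (rows), for MI against sham at P56 and for P56 against P1 in sham, in 13 libraries. Red points have a limma adjusted p under 0.05 and the bar is the list's median, which for the 7 identity genes is -0.68 at P56 after MI and -0.08 between ages, beside -0.61 and 0.55 for the pan-endothelial genes.

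After infarction at P1, 0 of the 7 genes were called, as were 0 of all 13033 genes in the main limma fit (0% of those tested). Of these 13033, 485 had an unadjusted limma p under 0.05. DESeq2 called 7 genes and edgeR 0. Some other limma settings called 8 of 11168 genes (only the groups compared), 2 (quantile normalization) and 2 (pseudocount of 0.25). None of the genes called was an identity gene. Mmrn1 was furthest from 0 at -0.69 with a 95% interval from -1.45 to 0.08, and the other 6 lay between -0.24 (Maf) and 0.31 (Sox18). In simulated data of this design 8.96% of genes changed 2-fold were recovered at P1 and 19.4% at P56, so changes of that size would mostly be missed in that setting. Few genes were changed there, none of the lowest, and the noise was independent between genes. Recovery in the real data may differ. The difference between the responses at the 2 ages was called for 0 of 7 genes, against 0.483% of all genes. Sox18 was furthest from 0, at -1.35 ± 0.48 (limma adjusted p = 0.25).

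Of 24 other genes known from lymphatic endothelium, 23 were in the table and were tested. Between P56 and P1, averaged over surgery, 6 were called higher, 3 lower and 14 in neither direction, against 8.25% of all genes higher and 10.3% lower, so the number lower is near the background. Those higher were Cp (ceruloplasmin), at 1.60 ± 0.24 (limma adjusted p = 1.1e-04), Timp3, a metalloproteinase inhibitor, at 1.07, Itga9, the integrin subunit of lymphatic valves, at 0.75, the chemokine scavengers Ackr2 and Ackr4 at 1.13 and 1.22, and Fgfr3 at 0.99. Those lower were Nfatc1, a factor of valve development, at -1.57 ± 0.25 (limma adjusted p = 2.0e-04), Clca3a1 at -1.45 and Angpt2, the Tie2 ligand angiopoietin 2, at -1.14. Cp stood at 89.2 ± 17.1 (SD, n = 2) in sham P1 and 235 ± 57.1 (n = 4) in sham P56, and Nfatc1 at 70.1 ± 1.26 and 25.3 ± 13.1. Only Cp and Ackr4 of these 9 were still called with all 16 libraries. Fgfr3 was also not called without any 1 of 6 of the 13 libraries. Flt4, the receptor of VEGF-C, and Lyve1, the hyaluronan receptor, were not called. At P56, MI against sham gave 2 lower and 0 higher (1.07% of all genes were lower), the mannose receptor Mrc1, found on macrophages too, at -0.92 (limma adjusted p = 0.036) and Gata2, a valve factor, at -1.38 (limma adjusted p = 0.047). Both calls were lost with all 16 libraries (limma adjusted p = 0.33 and 0.82) and on the pan-endothelial scale (0.54 and 0.16). At P1 0 of 23 were called.

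Among the relatives of the 7 genes, 10 were tested. Maff, a small Maf protein that lacks the activation domain, was lower at P56 by -2.21 ± 0.22 (limma adjusted p = 1.3e-06), opposite to Maf. Its values were 16.1 to 52.9 in the 6 P1 libraries and 4.52 to 7.57 in the 7 P56 libraries. Mmrn2, an endothelial relative of Mmrn1, was higher by 0.99 ± 0.20 (limma adjusted p = 0.0015). In sham it stood at 10.3 and 12.0 at P1 and at 26.8 to 53.2 at P56, while after MI the ages overlapped. Sox7 was lower by -0.62 ± 0.21 (limma adjusted p = 0.045), and Sox17 was called higher at P56 in sham, at 1.93 ± 0.48 (limma adjusted p = 0.011), though not averaged over surgery. Of these calls averaged over surgery, only that of Maff held with all 16 libraries. After MI at P56, Mmrn2 was lower by -1.05 ± 0.27 (limma adjusted p = 0.034), a call lost with all 16 libraries (-0.98, limma adjusted p = 0.57).

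Within an age the genes varied together to different degrees. Over the 42 relations of 2 genes within an age, 1 of 21 at P1 (6 libraries) and 5 of 21 at P56 (7 libraries) had an exact permutation adjusted p of Pearson's r under 0.05. The share over pairs of other genes was not computed, so these counts cannot be read as particular to the identity genes. At P1 the relation was Prox1 with Fgl2, at r = 0.94 (exact permutation p = 0.0056, adjusted 0.039) and rho = 0.94 (exact permutation p = 0.017, adjusted 0.10), and r = 0.9993 without the 2 libraries furthest from the median of Prox1. At P56 the 7 libraries had the same order for Mmrn1, Maf and Fgl2, each pair with rho = 1 (exact permutation p = 4.0e-04, adjusted 0.0056). For these, r was 0.95 for Mmrn1 with Maf, 0.97 for Mmrn1 with Fgl2 and 0.94 for Maf with Fgl2 (exact permutation p = 4.0e-04, adjusted 0.0056, for each), and 0.97, 0.91 and 0.96 without the 2 furthest libraries. Nr2f2 gave r = 0.93 with Mmrn1 and 0.97 with Fgl2 (exact permutation p = 0.0048 and 0.0052, adjusted 0.039), which became 0.64 and 0.87 without 2 libraries, so the first of these rests in part on them. The P56 libraries include both surgeries, and genes of 1 library share its make-up of cells and its scaling.

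The genes whose pattern over the 13 libraries was most like that of 6 of the identity genes were looked up among 3985 genes with a mean of at least 10 units, by Pearson's r, as a description. For Nr2f2 these were Itga9 (r = 0.97), Gltscr1l (0.95) and F8, coagulation factor VIII (0.95). For Maf they were F8 (r = 0.95), the semaphorin Sema6a (0.95) and Peak1 (0.95). Sox18 was most like Cd36 (r = 0.93), Rgs5 (0.93) and Myh6 (0.92), which are in the blood endothelial, pericyte and cardiomyocyte lists. Prox1 was most like Tmod2 (r = 0.94), Reep1 (0.94) and Bmp2k (0.93), and Fgl2 like Nfat5 (0.95), Jmy (0.94) and Sgk3 (0.94). For Mmrn1 the genes were Mbd2 (r = 0.92), Slc45a3 (0.91) and Exoc6 (0.91). The points share 2 ages, their libraries' depth and their cell make-up.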

How the data were processed

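The 16 libraries were sequenced from RNA of sorted cells, and 1 table of 15895 genes was used. The submitters' processing notes name the tools Trimmomatic, STAR, HTSeq, edgeR and the genome mm10 (GRCm38), per the labels; versions and strand setting are not given in the sources used here. Deposited values, of unit signal and named CPM by the authors, are reads times 1 constant per library; columns sum to 297624 to 177049106. The design had assumed plain CPM. Whole reads were recovered with a tolerance of 0.01 read (99.98% to 100% of values) and used for depth and for edgeR 4.0.16 and DESeq2 1.42.0. Outside Uqcrc1 and mitochondrial ribosomal RNA the 13 libraries kept hold 6709566 to 12918569 reads. Those left out hold 6376296 (sham P1 library 1), 321929 (sham P1 library 2) and 41346 (MI P56 library 5). Columns numbered 5 have no counterpart among the labels' numbers; their group was read from the column name.

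limma 3.58.1 (R 4.3.3), with a trend, was fitted to log2(value + 1) of 13033 genes (value 1 or more in 4 or more of the 13 libraries with reads on at least 10000 genes), and to all 16. It covered 6 comparisons, two-sided, adjusted by Benjamini-Hochberg over all genes. Permutation tests used scipy 1.17.1; permuting ages within surgery was added after seeing the data. Coordinates and exon lengths are from GENCODE M21 (GRCm38), promoters from RefSeq. Alternatives were other pseudocounts, filters, scalings and tools, a replicate block, all 16 libraries and each library left out. The method was tested on simulated data (13045 genes). All 7 genes are named; other lymphatic genes are named where called, relatives by level, and the 3 most alike genes by correlation, leaving out predicted genes and pseudogenes. For Pdpn the most alike genes are not reported here. The members, lists and rules were chosen with earlier results of these data known.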

Additional observations from a re-analysis of the deposited data

Results flagged for a closer look

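In 28 groups of 4 libraries, 1 for each identity gene and group, the highest or lowest library was tested against the rest of its group, and 2 stood apart by Dixon's criterion, where chance gives about 1 in 20. In sham P1 library 1, Pdpn was at 70.6 units, and the other 3 of that group were at 16.2 to 18.8. Maf was at 729 units in MI P56 library 5, from 169 reads, against 59.0 to 116 in the other MI P56 libraries. Both libraries are among the 3 with reads on fewer than 10000 genes and are not in the 13.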

How the results depend on the processing

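The result that held most widely was the averaged age difference of Fgl2, called in 24 of 24 alternatives (-1.30 to -0.88), followed by Maf, called in 23 of 24 (0.91 to 1.29). Nr2f2 was called in 20, Sox18 in 13 and Prox1 in 8 of the 24. The number of the 7 genes called moved as follows, beside the number over all genes. The latter was 2415 averaged, 1716 in sham and 697 after MI in the main fit, of 13033. Using all 16 libraries, the count of the 7 was 1 averaged over surgery, 0 in sham and 0 after MI. Over all genes it was then 510, 518 and 14 of 13243. The cause was not tested beyond the 3 libraries added. The averaged count of the 7 was 3 with edgeR (2073 of all genes) and 3 on the pan-endothelial scale (2467). After MI it was 2 with DESeq2 (1024 of all genes) and 2 with only the groups compared (1136 of 11588). It was also 2 with quantile normalization (881) and 2 on the pan-endothelial scale (674). Leaving out 1 library gave 2 to 5 averaged, 0 to 3 in sham, 1 to 2 after MI, and 0 to 1 for MI against sham at P56. In sham the count was 1 without sham P1 library 3 and 0 without sham P1 library 5, where the lone sham P1 library is assumed to vary like the other groups. Mmrn1 over Prox1 was at 0.35 (log2) with all 16 libraries and no longer called.

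Replicate numbers gave no sign of pairing the libraries: 15 pairs with the same number had correlations of deviations from -0.320 to 0.135 (median -0.0523), and 47 other pairs -0.146 to 0.320. The 2 sham P1 libraries deviate from their own mean by opposite amounts, so -0.320 and 0.320 are the same value with its sign turned. Groups this small cannot settle whether the numbers pair libraries. With the replicate block the count was 2 averaged and 1 in sham, against 1783 and 1215 of all 13033 genes. Nr2f2 at P1 was then -0.091 and Sox18 between ages after MI was -0.0046.

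Differences that changed sign were not called in either fit, and the cause was not tested. With all 16 libraries these were Maf after MI at P56 (0.027), the interactions of Maf (0.78), Nr2f2 (0.034) and Pdpn (0.41), Nr2f2 after MI at P1 (-0.67) and Sox18 between ages after MI (-0.83). On the pan-endothelial scale they were the interactions of Fgl2 (0.26), Maf (0.43), Mmrn1 (0.72), Nr2f2 (0.41), Pdpn (0.69) and Prox1 (0.68), Nr2f2 after MI at P1 (-0.25), and Nr2f2 (0.16), Pdpn (0.37) and Prox1 (0.21) after MI at P56. This scale moved the median of all genes in the interaction by 0.74. With other tools, after MI at P1 Fgl2 was 0.0057 (DESeq2), and Nr2f2 was -0.0075 (DESeq2), -0.013 (edgeR) and -0.0037 (median-of-ratios). Mmrn1 between ages in sham was 0.12 with quantile normalization. Leaving out 1 library gave, for MI against sham at P1, Fgl2 -0.19 to 0.16, Nr2f2 -0.14 to 0.18, Pdpn -0.16 to 0.10 and Prox1 -0.46 to 0.077. It gave Pdpn -0.50 to 0.037 at P56, and interactions of -0.60 to 0.14 (Mmrn1) and -0.44 to 0.095 (Pdpn). Between ages in sham it gave Mmrn1 -0.39 to 0.24 and Pdpn -0.28 to 0.10, and after MI Mmrn1 -0.68 to 0.06, Pdpn -0.53 to 0.0069 and Sox18 -0.31 to 0.23.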
